A study of Mus musculus with 6 samples.

Results

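Histone genes were followed across the cell types of mouse islets, in single-cell RNA-Seq libraries of WT mice and of mice that lack 14-3-3ζ in β cells (β14-3-3ζ–KO). A gene was a member when its symbol began with Hist1h to Hist4h, H2af, or H3f, which took in 79 of the 32285 genes counted. Of these, 67 were replication-dependent histone genes, 11 were variant histone genes, and 1, H3f3aos, was an RNA antisense to H3f3a. The symbol rule did not take in H1f0, H1fx, or Cenpa, which were kept as a list of other histone genes. No histone gene was used to name a cell or to call it dividing.

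There were 3 mice of each genotype, 12 to 14 weeks old and of strain C57/BL6, and each mouse gave 1 library, so that the mouse was the replicate. The KO mice carried Ywhaz, the gene for 14-3-3ζ, with LoxP sites around exon 4, and a Cre driven from the Ins1 locus, which restricts the deletion to β cells. The WT mice were Cre-positive littermates, so Cre was shared by all 6. In all β cells, Ywhaz was at 123, 167, and 159 counts per 1000000 UMIs (CPM) in the WT libraries and at 18.5, 18.6, and 19.5 CPM in the KO libraries, lower in every KO library, as the labels have it. A UMI marks 1 captured RNA molecule.

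The libraries held 4400 to 10722 barcodes and 74083947 to 98294915 UMIs each, and 236 of the 43207 distinct barcodes occurred in more than 1 library. The replicate 2 libraries of both genotypes stood apart, with 1269 and 889 B cells against 12 to 191 in the others, so results that rest on them are also given without them. Cell types were set by hormone shares and canonical markers, which gave 5837 β cells (753 to 1176 per library), 674 α cells, 494 δ cells, 274 Ppy-high cells, 1057 endothelial cells, 519 macrophages, 113 mesenchymal cells, 2462 B cells, 1352 T cells, and 144 ductal cells. Each named type had at least 3 of its fixed markers at 10 CPM or more, except the Ppy-high cells. In those, 2 of 4 pancreatic polypeptide cell markers reached it, and they are therefore called by their leading gene. This level alone does not tell types apart: all 9 β cell markers also reached it in B cells, T cells, and macrophages. Their summed means were 76511, 71613, and 42296 CPM there, against 472054 CPM in β cells, and the source of this RNA was not tested. Cells of the named types with transcripts of at least 6 of 20 genes of S, G2, and M phase were kept apart as dividing cells. They are not in these cell numbers.

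Histones are the proteins around which DNA is wound, with 2 copies each of H2A, H2B, H3, and H4 in a nucleosome core and H1 on the linker DNA. Replication-dependent genes, most of them in clusters, make the bulk of these proteins while DNA is copied. Their mRNAs are unusual in ending in a short stem-loop in place of a poly(A) tail, and the stem-loop binding protein Slbp governs their processing, translation, and decay. Some of these genes also give longer, polyadenylated mRNAs in cells that no longer divide. Variant histones such as H3.3 (H3f3a and H3f3b), H2A.Z (H2afz and H2afv), and macroH2A (H2afy and H2afy2) are made throughout the cell cycle from ordinary polyadenylated mRNAs. The gene of H2A.X, H2afx, is known to give both stem-loop-ended and polyadenylated mRNAs. The Chromium 3′ assay primes on poly(A), so a stem-loop-ended mRNA without a tail is captured poorly, and the levels here are those of the RNAs that were captured. They do not scale with transcript length.

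The stem-loop of the histone mRNA is shown first because the levels are described by where it lies in the annotated transcripts of each gene. The pattern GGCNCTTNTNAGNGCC, 16 bases read on the transcript strand, was found in the annotated transcripts of 44 of the 67 replication-dependent genes, each time in the 3′ UTR, against 51 of 21901 protein-coding genes (0.233%) in GENCODE vM21 on GRCm38. Of the 11 variant genes, H2afx held it. In the lines below the 16 bases are in capitals, between up to 7 bases on either side, for the leading H1 genes of non-dividing cells, for genes led by dividing cells, and for H2afx.

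Hist1h1c: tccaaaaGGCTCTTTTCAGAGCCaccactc
Hist1h1e: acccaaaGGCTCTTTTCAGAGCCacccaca
Hist1h1d: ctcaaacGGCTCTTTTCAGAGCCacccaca
Hist1h4d: aaccaaaGGCCCTTTTCAGGGCCactacct
Hist1h2ae: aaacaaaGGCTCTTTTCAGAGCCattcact
Hist1h2ab: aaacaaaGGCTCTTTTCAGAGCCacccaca
Hist1h2ap: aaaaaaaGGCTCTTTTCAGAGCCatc
Hist1h3c: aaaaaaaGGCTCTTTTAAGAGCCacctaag
H2afx: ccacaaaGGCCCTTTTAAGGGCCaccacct

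The 16 bases of Hist1h1c lie at chr13:23739512-23739527 on the plus strand, with 840 bases of transcript annotated after them, and those of Hist1h1e lie at chr13:23621782-23621797 on the minus strand, with 1153 bases after them. In Hist1h1d (chr13:23555787-23555802, plus strand) 4884 bases follow, and in Hist1h4d (chr13:23581950-23581965, plus strand) 770 bases follow. In Hist1h2ap (chr13:21833029-21833044, minus strand) the transcript ends after 3 bases, in Hist1h2ab (chr13:23751572-23751587, plus strand) after 11, in Hist1h3c (chr13:23745047-23745062, minus strand) after 74, and in Hist1h2ae (chr13:23570668-23570683, minus strand) after 151. In H2afx (chr9:44335240-44335255, plus strand) 822 bases follow. Where a gene had several annotated transcripts with the pattern, the transcript with the most bases after it was taken. At a limit of 100 bases, 22 replication-dependent genes had a long stretch after the stem-loop and 22 a short one. A gene with a long stretch may therefore also have an annotated transcript that ends sooner. The pattern was not found in the other 23, among them Hist1h2bc, Hist1h1b, and Hist1h1a, which says only that these letters are not in the annotated transcripts. Of the 67 genes, 54 lie on chromosome 13, 10 on chromosome 3, 2 on chromosome 11, and 1 on chromosome 6, whereas the 11 variant genes are spread over 8 chromosomes.

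The promoters of 4 H1 genes are shown because H1 genes held the largest share of the replication-dependent transcripts both in β cells and in dividing cells. Each line holds the 120 bases before the RefSeq start on GRCm38.p6, read in the direction of the gene, with 3 motifs in capitals on either strand: the CCAAT box, the TATA box written as TATAAA, and the H1 promoter sequence AAACACA.

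Hist1h1c: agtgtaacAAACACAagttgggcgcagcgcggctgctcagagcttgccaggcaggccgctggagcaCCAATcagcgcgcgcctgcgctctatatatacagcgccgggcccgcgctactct
Hist1h1e: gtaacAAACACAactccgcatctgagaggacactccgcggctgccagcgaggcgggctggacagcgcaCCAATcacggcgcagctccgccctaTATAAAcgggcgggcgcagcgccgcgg
Hist1h1b: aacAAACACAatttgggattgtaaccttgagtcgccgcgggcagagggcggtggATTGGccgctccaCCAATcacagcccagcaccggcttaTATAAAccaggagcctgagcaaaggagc
Hist1h1a: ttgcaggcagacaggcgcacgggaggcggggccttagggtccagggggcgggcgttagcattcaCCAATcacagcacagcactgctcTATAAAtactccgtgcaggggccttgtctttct

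The windows are chr13:23738687-23738806 (plus strand) for Hist1h1c, chr13:23622559-23622678 (minus strand) for Hist1h1e, chr13:21780626-21780745 (minus strand) for Hist1h1b, and chr13:23763548-23763667 (plus strand) for Hist1h1a. Over the 250 bases before the start and on both strands, CCAAT was present in 50 of the 61 replication-dependent genes with a RefSeq promoter (82.0%) and in 34.5% of all 27025 promoters. TATAAA was present in 29 of the 61 (47.5%) and in 13.0% of all promoters. The H1 promoter sequence was present in 5 of the 6 H1 genes with a promoter and in 4 of the 55 other replication-dependent genes (7.27%), against 6.22% of all promoters. It was not in the printed window of Hist1h1a. Of 78 members looked up, 70 had a RefSeq promoter, and of the 9 variant genes among them 7 held CCAAT and 1 held TATAAA.

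In β cells, 3 genes made up most of the replication-dependent histone transcripts, and an H1 gene led them. Hist1h1c, a linker histone H1.2 gene, was at 290, 176, and 227 CPM in the WT libraries and at 238, 123, and 209 CPM in the KO libraries. Hist1h2bc, an H2B gene, was at 174, 153, and 168 CPM in WT and at 153, 148, and 156 CPM in KO. Hist1h1e, a linker histone H1.4 gene, was at 81.5, 57.7, and 103 CPM in WT and at 96.9, 60.5, and 77.5 CPM in KO. These 3 genes held 73.9% of the replication-dependent UMIs of β cells, from 71.2% to 76.3% over the 6 libraries. Hist1h1c and Hist1h1e were lowest in the replicate 2 libraries of both genotypes.

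The other replication-dependent genes were at far lower levels. Hist1h4d, an H4 gene, averaged 18.2 CPM ± 1.99 (SD, n = 6), Hist1h4i 15.4 ± 1.21, and Hist1h1d 14.1 ± 5.30. Only 8 of the 67 replication-dependent genes reached 10 CPM in β cells, and 43 were under 1 CPM. Over all classed cells, 3 of them had no UMI (Hist1h2bq, Hist1h2ah, and Hist1h2ba), and so did the 3 variant genes H2afb1, H2afb2, and H2afb3. H3f3aos had 425 UMIs in all. Near-identical copies, such as Hist1h2ap and Hist1h2ao or Hist2h3b, Hist2h3c1, and Hist2h3c2, share reads, and how counting divided them is uncertain.

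The 8 variant genes with UMIs were each at 10 CPM or more in β cells. H3f3b led at 321 CPM ± 20.1 (SD, n = 6), followed by H2afz at 303 ± 25.4 and H3f3a at 262 ± 36.5, whose spreads overlap. H2afj followed at 191 ± 11.0, H2afy at 154 ± 21.9, H2afv at 40.2 ± 6.11, H2afy2 at 21.0 ± 2.81, and H2afx at 11.1 ± 1.55. Summed over members, variant genes were at 1113 to 1391 CPM and replication-dependent genes at 449 to 719 CPM in β cells, and the variant sum was 1.55 to 3.10 times the replication-dependent sum.

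**Figure D1:**
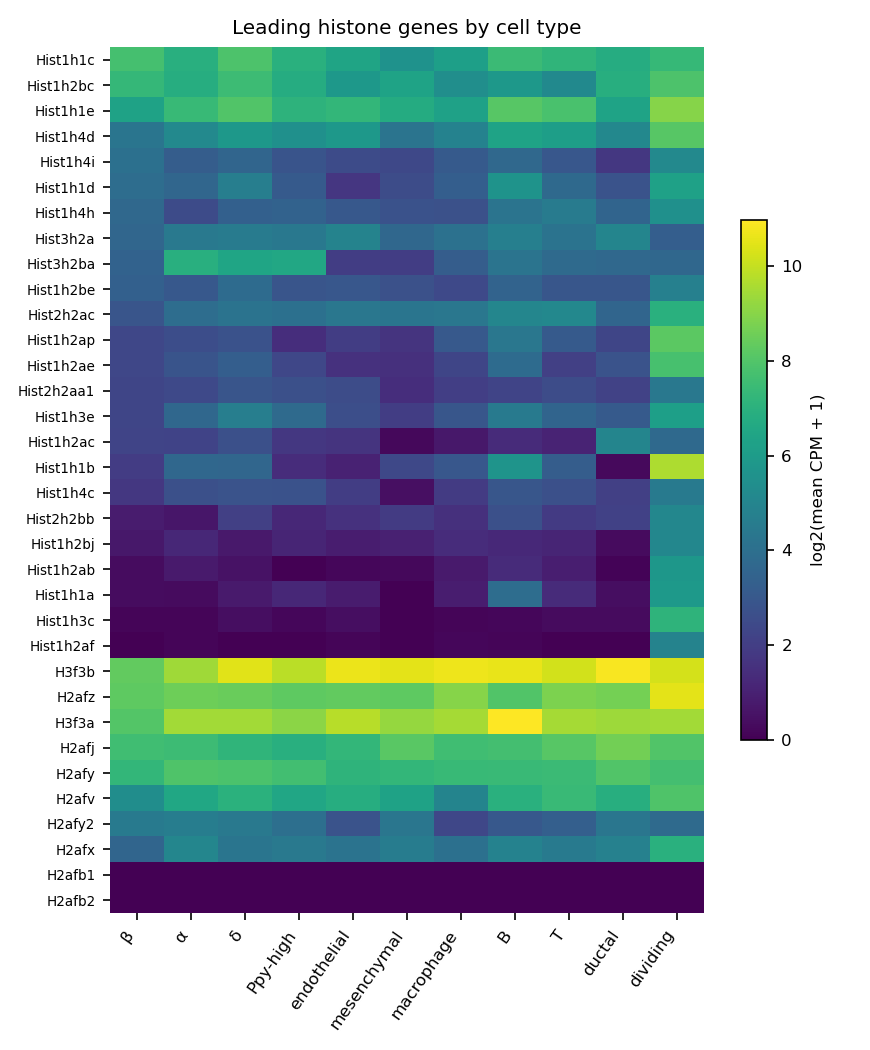
Mean level of the leading histone genes (rows) in each cell type and in dividing cells (columns), as log2 of the mean CPM over libraries plus 1. Hist1h1c, Hist1h2bc, and Hist1h1e lead the replication-dependent genes of β cells, Hist3h2ba stands out in α, δ, and Ppy-high cells, and Hist1h1b, Hist1h2ap, and Hist1h3c stand out in dividing cells.

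Across non-dividing cell types, δ cells and B cells had the highest summed replication-dependent levels and macrophages and mesenchymal cells the lowest. By mean CPM the order was δ cells (1057 ± 173, SD, n = 6), B cells (962 ± 277), α cells (701 ± 89.1), T cells (694 ± 307), Ppy-high cells (641 ± 40.7), β cells (606 ± 99.3), ductal cells (503 ± 224), endothelial cells (465 ± 96.6), macrophages (345 ± 55.7), and mesenchymal cells (337 ± 168). No neighbours in this order were separated beyond their spread. The highest T cell sum, 1303 CPM in WT library 3, came from 6 cells, and the other libraries lay between 475 and 685 CPM. In WT library 2 the ductal sum was 948 CPM against 349 to 472 CPM in the others. There Hist1h2ac was at 146 CPM, against 1.39 to 26.4 CPM in the other ductal libraries, and only 11 ductal cells were counted.

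The variant sum was lowest in β cells. It was at 1970 to 2616 CPM in α cells, 2040 to 2380 CPM in Ppy-high cells, 2784 to 3127 CPM in δ cells, and 3701 to 4801 CPM in B cells, and none of these ranges overlapped that of β cells. Hormone transcripts took 47.3% of the UMIs of β cells, which lowers the CPM of every other gene there. With hormone genes left out of the CPM, the variant sum of β cells was 2369 to 2689 CPM, still with the lowest mean of the 10 types (2469), but it overlapped that of mesenchymal cells (2143 to 4556 CPM), and α cells were at 2762 to 3520.2 CPM. On that scale the replication-dependent sum of β cells was 868 to 1531 CPM, with a mean of 1155, and overlapped those of Ppy-high cells (1061 to 1260.1 CPM) and α cells (836 to 1119.9 CPM).

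**Figure D2:**
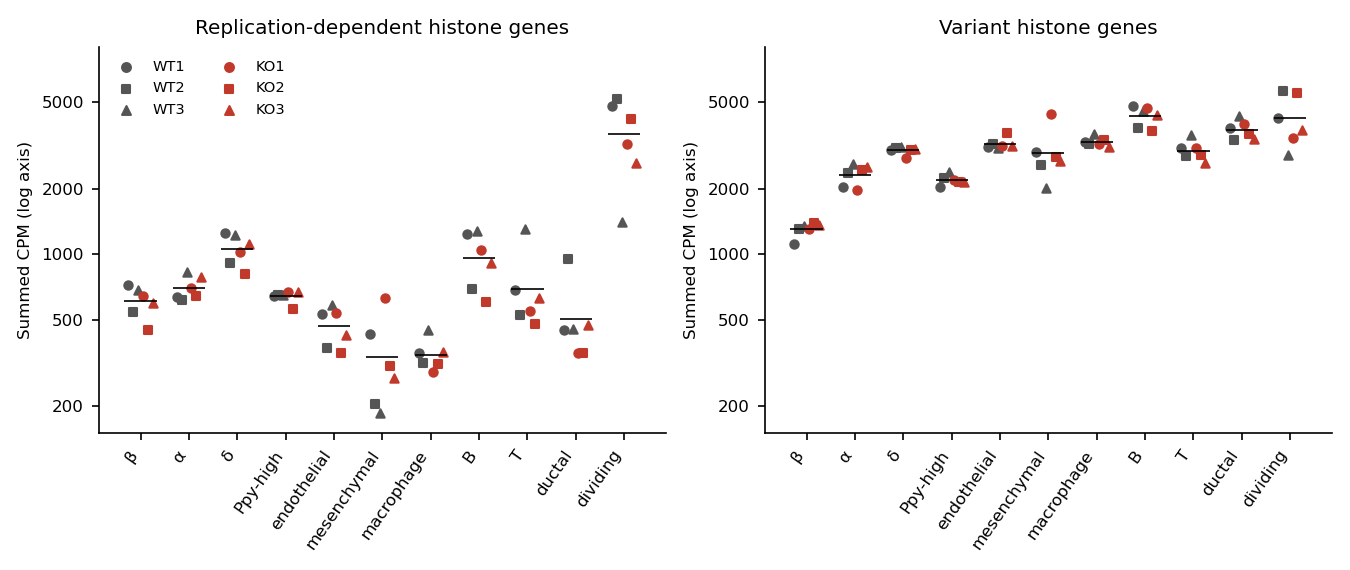
Summed CPM of the 67 replication-dependent genes (left) and of the 11 variant genes (right) on a log axis, for each cell type and for dividing cells, with 1 point per library and a line at the mean. The dividing points lie above those of every other type on the left, from 1409 to 5161 CPM, and overlap those of B cells on the right.

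Single members were compared between each type and β cells with edgeR's quasi-likelihood test on UMIs summed per library, with library as a block. A gene was called when its p, adjusted over all genes by Benjamini-Hochberg, was below 0.05 and its log2 fold change was more than 0.1 away from 0. Against β cells, 26 of 38 members tested were called in α cells, where 56.9% of all genes were called, 28 of 42 in δ cells (56.1% of all genes), 22 of 39 in Ppy-high cells (49.4%), 27 of 38 in endothelial cells (81.6%), 19 of 35 in mesenchymal cells (52.2%), 23 of 38 in macrophages (72.1%), 27 of 42 in B cells (69.2%), 25 of 39 in T cells (62.1%), and 22 of 37 in ductal cells (66.0%). These shares lay near those of all genes, above in some types and below in others, so that being called against β cells was not particular to histone genes. A type entered with the libraries that held at least 10 of its cells, which were 4 for mesenchymal cells and 5 for T and ductal cells.

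By direction, replication-dependent genes were called higher and lower in similar numbers in α cells (9 and 11 of 29, against 27.7% and 29.3% of all genes) and Ppy-high cells (9 and 6 of 30, against 23.4% and 26.0%). More were called higher than lower in δ cells (14 and 7 of 33, against 27.4% and 28.6%), B cells (17 and 4 of 33, against 30.7% and 38.5%), and T cells (13 and 6 of 30, against 28.4% and 33.6%). More were called lower in endothelial cells (4 higher and 16 lower of 29, against 39.2% and 42.4%), macrophages (4 and 13 of 29, against 34.4% and 37.7%), mesenchymal cells (0 and 13 of 26, against 23.4% and 28.8%), and ductal cells (1 and 15 of 28, against 32.4% and 33.6%). Of the 8 variant genes with UMIs, 3 to 5 were called higher and 1 to 4 lower in each type.

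Hist3h2ba, an H2B gene of the small cluster on chromosome 11, set the other islet endocrine cells apart from β cells. It was at 115, 107, and 151 CPM in WT and 103, 126, and 124 CPM in KO α cells. In β cells it was at 12.1, 7.88, and 9.67 CPM in WT and 11.1, 7.88, and 10.5 CPM in KO. The ranges were 66.6 to 112 CPM in δ cells and 77.1 to 109 CPM in Ppy-high cells, so that all 3 types lay above every β cell library. The log2 fold change against β cells was 3.21 ± 0.10 (SE) in α cells, 2.48 ± 0.10 in δ cells, and 3.24 ± 0.10 in Ppy-high cells, and it was -2.27 ± 0.28 in endothelial cells. Each of these was called. Its neighbour Hist3h2a, an H2A gene, was called higher in the same 3 endocrine types with log2 fold changes of 0.49, 0.45, and 0.83, but also in endothelial (0.80), B (0.98), T (0.67), and ductal cells (0.74).

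The leading genes of β cells were lower in other types. Hist1h2bc was called lower in all 9 types, with log2 fold changes from -0.39 ± 0.07 in δ cells to -2.33 ± 0.21 in mesenchymal cells. Hist1h1c was called lower in 8 of the 9, and its log2 fold change in B cells, the exception, was -0.42 ± 0.20. Hist1h1e went the other way in most: it was called higher in α cells (0.66), δ cells (1.10), Ppy-high cells (0.75), endothelial cells (0.34), B cells (1.58), and T cells (0.83), and lower in macrophages (-0.25) and ductal cells (-0.46). Of 10 other settings, 1 lost the endothelial call of Hist1h1e and 5 lost the macrophage call.

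Among the variant genes, both H3.3 genes were called higher than in β cells in all 9 types. H3f3b had log2 fold changes from 0.67 ± 0.08 in α cells to 2.16 ± 0.08 in macrophages, and H3f3a from 0.66 ± 0.16 in mesenchymal cells to 2.73 ± 0.21 in B cells. H3f3a was at 1529 to 2262 CPM in B cells against 197 to 308 CPM in β cells. H2afv, which encodes H2A.Z.2, was called higher in 8 types and lower in macrophages (-0.63). H2afy2, which encodes macroH2A2, was called lower in 8 types, with -2.37 in endothelial cells and -2.58 in macrophages, and in α cells it was at -0.21 and not called. H2afz, which encodes H2A.Z.1, was called higher in macrophages (0.53) and lower in δ, endothelial, and mesenchymal cells (-0.38, -0.50, and -0.51).

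B cells had H1 genes that β cells hardly expressed. Hist1h1b, a linker histone H1.5 gene, was at 124, 36.5, and 49.6 CPM in WT and 16.9, 39.9, and 32.9 CPM in KO B cells, against 2.18 to 4.34 CPM in β cells, with a log2 fold change of 4.24. Hist1h1a, a linker histone H1.1 gene, was at 5.08 to 29.7 CPM in B cells against 0.16 to 0.43 CPM in β cells, with a log2 fold change of 4.98. These B cells were below the limit for dividing cells, but cells with transcripts of fewer cycle genes remained among them, and their part in these levels was not tested.

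Dividing cells had far more replication-dependent histone RNA than non-dividing cells. The summed level was 4835, 5161, and 1409 CPM in dividing cells of the WT libraries and 3208, 4175, and 2634 CPM in those of the KO libraries. In non-dividing cells of the same types and libraries, 5 per dividing cell, it was 699, 632, and 632 CPM in WT and 552, 514, and 634 CPM in KO. No library overlapped, and the ratio within a library was 2.23 to 8.16. The variant sum was also higher in each library, by 1.64 to 2.59 times. There were 8, 119, and 6 dividing cells in the WT libraries and 9, 84, and 14 in the KO libraries, so the values of WT library 3 and of both replicate 1 libraries rest on very few cells.

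The dividing cells differed between libraries in type. In the replicate 2 libraries most were B or T cells, 101 and 10 of 119 in WT and 56 and 19 of 84 in KO. In the other WT libraries, 4 of 8 and 5 of 6 were β cells, and in the other KO libraries 8 of 9 and 9 of 14 were. Within β cells of the 4 libraries that had dividing β cells (4 to 9 cells each), the replication-dependent sum was 2.03 to 5.79 times higher in the dividing cells, and the variant sum 2.07 to 3.43 times. Within B cells of 3 libraries the ratios were 7.63 to 8.59 and 1.52 to 1.64. Dividing cells also held more UMIs per cell, 24342 and 20979 against 6977 and 6513 in the replicate 2 libraries and 41322 to 59906 against 26563 to 39759.9 in the others. The part of this in the CPM was not tested.

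By gene, 24 of 32 members tested were called in dividing against matched non-dividing cells, where 21.2% of all 9281 genes tested were called. All 24 were higher, where 11.3% of all genes were called higher and 9.9% lower. Of 24 replication-dependent genes tested, 20 were called, with a median log2 fold change of 2.503 over the 24, and of 8 variant genes 4 were called, with a median of 0.59. The median over all genes was -0.06. Low genes could pass the filter on counts through the dividing cells alone, so the counts and medians of this paragraph describe the tested members and not all 79. Set beside the shares of all genes, these counts are therefore no evidence about histone genes as a group. After TMM normalization, 21 of the 32 were higher in all 6 libraries, as were 8.17% of all genes. With both replicate 2 libraries left out, 18 of 25 were called, all higher, and the share of all genes called then is not given here.

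Linker histone genes split. Hist1h1b was at 737, 1509, and 163 CPM in dividing cells of WT and 315, 1594, and 348 CPM in those of KO libraries, and in non-dividing cells it was at 8.17, 31.1, and 4.27 CPM in WT and 2.67, 30.9, and 4.30 CPM in KO. Its log2 fold change was 5.94 ± 0.21 (adjusted p = 3.45e-11), and in the replicate 2 libraries it was the most abundant replication-dependent gene of dividing cells. Hist1h1a rose by 4.61 ± 0.38, Hist1h1d by 2.22 ± 0.33, and Hist1h1e by 2.15 ± 0.17 on the log2 scale. Hist1h1c did not pass the test: it was at 73.2 to 234 CPM in dividing and 92.2 to 249.6 CPM in non-dividing cells, with a log2 fold change of -0.10 ± 0.27, and was higher in 3 of 6 libraries.

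Several H2A genes and the H3 gene Hist1h3c rose steeply. Hist1h2ap was at 415, 660, and 190 CPM in dividing cells of WT and 142, 146, and 230 CPM in those of KO libraries, against 0.67 to 14.2 CPM in non-dividing cells, with a log2 fold change of 5.59 ± 0.24. Hist1h2ae rose by 5.41 ± 0.29 and Hist1h2ab by 5.96 ± 0.27. For Hist1h3c, 969 UMIs were counted in dividing cells and 2 in non-dividing cells, a ratio of pooled CPM of 942 with an exact counting interval of 260.0 to 7788. For Hist1h2af, an H2A gene, 178 UMIs were counted against 1, a ratio of 346 with an interval of 61.3 to 13743. Of the H4 genes, Hist1h4d rose by 3.15 ± 0.25, Hist1h4h by 2.10 ± 0.32, and Hist1h4i by 1.34 ± 0.30.

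H2B genes did not move together. Hist1h2bj rose by 5.09 ± 0.32 and Hist1h2be by 1.70 ± 0.30 on the log2 scale. Hist1h2bc was at 574, 32.5, and 131 CPM in dividing cells of WT and 331, 39.2, and 332 CPM in those of KO libraries, against 167, 54.9, and 122 CPM in WT and 117, 51.9, and 144 CPM in KO non-dividing cells. It was higher in 4 libraries and lower in the replicate 2 libraries, and its log2 fold change of 0.59 ± 0.28 was not called. Without WT library 2 it was 0.86, and without both replicate 2 libraries 1.24, and both of these were called. Hist3h2ba and Hist3h2a had log2 fold changes of -0.38 ± 0.23 and -0.72 ± 0.27, and neither was called.

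As shares of the replication-dependent UMIs, Hist1h1c, Hist1h2bc, and Hist1h1e together fell from 65.1% in non-dividing to 27.8% in dividing cells on average. H2A genes took 8.12% in non-dividing and 23.5% in dividing cells, H3 genes 3.59% and 8.38%, and H4 genes 11.7% in each. These shares are averages over the 6 libraries and were not tested.

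**Figure D3:**
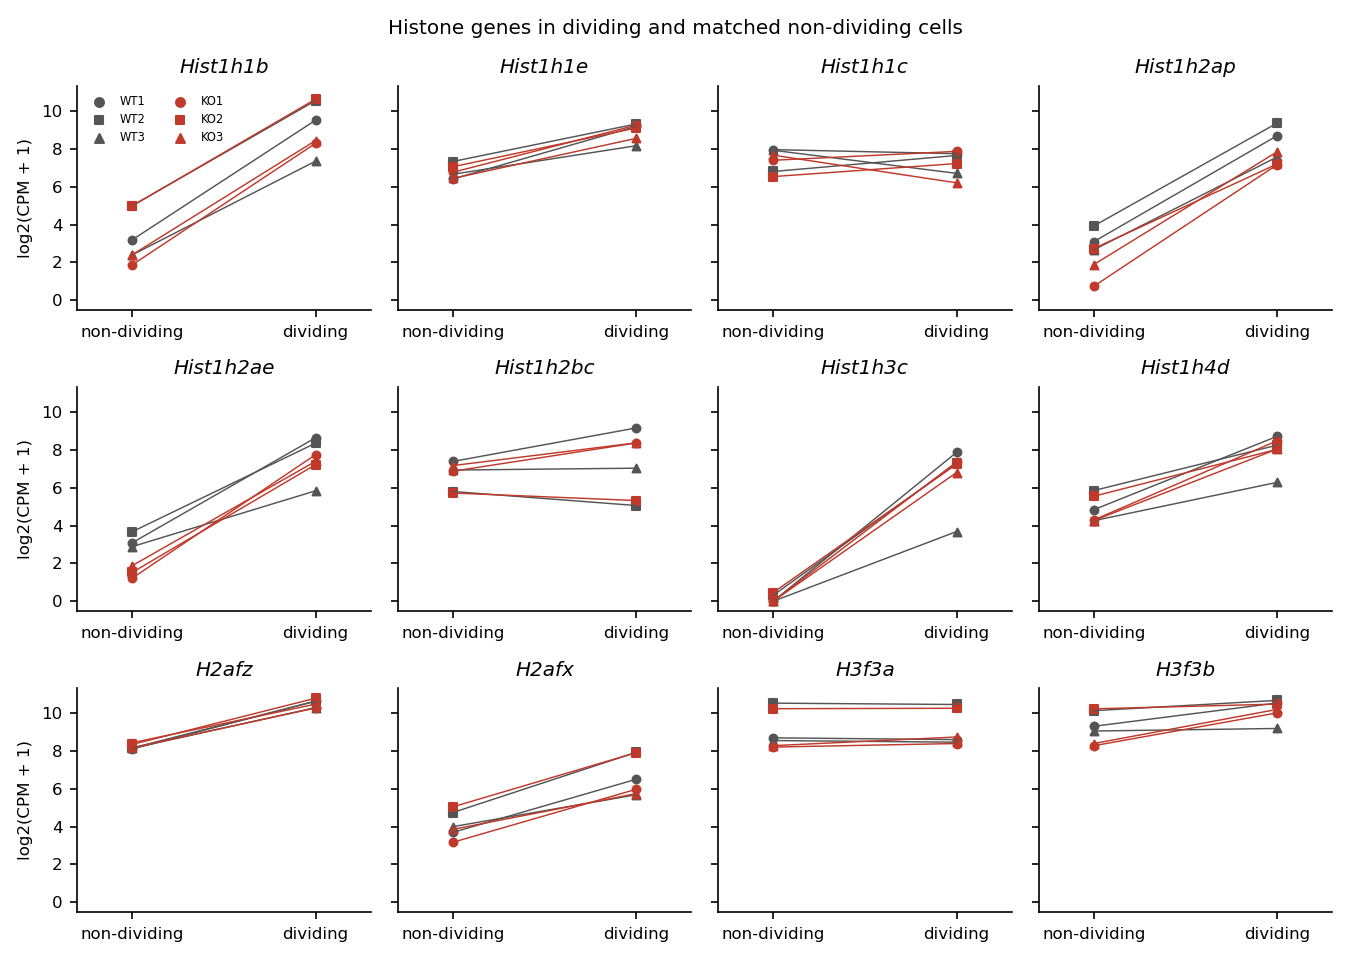
Level of 12 histone genes in non-dividing and dividing cells, as log2 of CPM plus 1, with a line for each of the 6 libraries (grey WT, red KO). Lines rise steeply for Hist1h1b, Hist1h2ap, Hist1h2ae, and Hist1h3c, stay level for H3f3a, and go up in some libraries and down in others for Hist1h1c and Hist1h2bc.

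Among the variant genes, those of H2A.Z and H2A.X were higher in dividing cells. H2afz was at 1596, 1594, and 1258 CPM in WT and 1239.6, 1776, and 1429.5 CPM in KO dividing cells, against 275 to 346 CPM in non-dividing cells, with a log2 fold change of 2.27 ± 0.16. H2afx rose by 2.72 ± 0.21, and H2afv by 1.83 ± 0.17. The dividing levels of H2afx were 240.0 and 243 CPM in the replicate 2 libraries and 50.4 to 89.7 CPM in the others. In dividing β cells of the 4 libraries that had them, H2afx was at 9.10, 48.9, 58.2, and 17.9 CPM from 3, 15, 21, and 9 UMIs, against 8.33 to 12.3 CPM in non-dividing β cells.

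The H3.3 genes differed. H3f3a was at 336 to 1410.2 CPM in dividing and 295 to 1481 CPM in non-dividing cells, with a log2 fold change of 0.04 ± 0.14. By CPM it was higher in the 3 KO and lower in the 3 WT libraries, but after TMM normalization it was higher in only 1 of the 6. H3f3b was higher in each library, with a log2 fold change of 0.92 ± 0.21 (adjusted p = 0.00664), but its call was lost without doublet removal (0.68, adjusted p = 0.0988) and with a looser mitochondrial limit (0.65, adjusted p = 0.122). H2afj, H2afy, and H2afy2 had log2 fold changes of 0.18 ± 0.13, 0.25 ± 0.15, and -0.54 ± 0.30 and were not called.

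The rise in dividing cells was compared between replication-dependent genes with a short and with a long stretch after the stem-loop. In non-dividing cells, the 22 genes with a short stretch held 25.6 to 71.8 CPM in sum, 6.44% of the replication-dependent UMIs, and the 22 genes with a long stretch held 371 to 479.8 CPM, 71.2% of them. In dividing cells, the genes with a short stretch held 362 to 1382 CPM, 22.6%, and those with a long stretch 673 to 2064 CPM, 43.3%. The ratio of dividing to non-dividing cells within a library was 14.1 to 33.01 for genes with a short stretch and 1.44 to 4.32 for genes with a long one, and these ranges did not overlap. Within β cells of 4 libraries the ratios were 9.48 to 36.4 and 1.43 to 3.72. Genes in which the pattern was not found had ratios of 2.73 to 19.3.

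The groups were not uniform. The ratios are of summed CPM, so abundant genes weigh most in them. Among the genes with a long stretch, Hist1h1c, which led in β cells, had a log2 fold change of -0.10 ± 0.27 in dividing cells. Hist1h4d, also with a long stretch, rose by 3.15, more than Hist1h4h (2.10) with a short one. Hist1h2ae, with 151 bases after the stem-loop, rose as steeply as genes with a short stretch, and in non-dividing cells Hist1h2ap, which ends after 3 bases, was not at 0 in any library. Transcript ends are those of the annotation, and which ends the captured molecules had was not measured. Of the H1 genes shown above, Hist1h1c, Hist1h1e, and Hist1h1d have a long stretch, whereas no match was found for Hist1h1b and Hist1h1a.

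**Figure D4:**
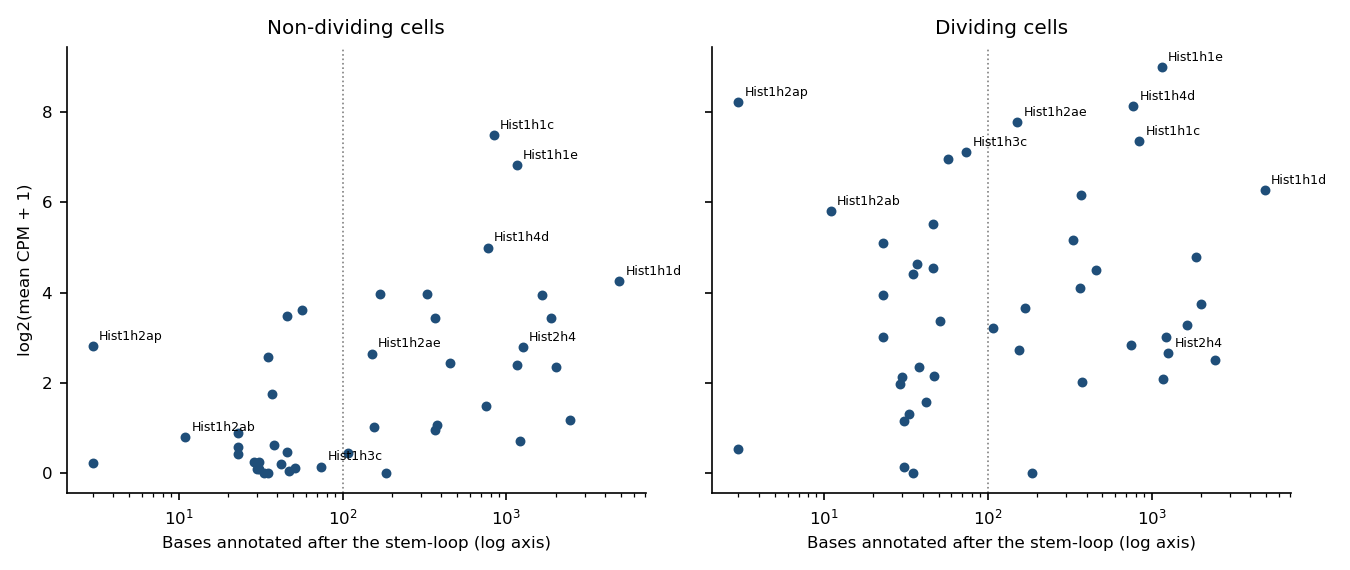
Mean level of each of the 44 replication-dependent genes with the stem-loop pattern, as log2 of the mean CPM over 6 libraries plus 1, against the number of bases annotated after the stem-loop on a log axis, in matched non-dividing cells (left) and in dividing cells (right). The dotted line marks 100 bases, and of the points left of it, those of Hist2h2ac (11.2 CPM), Hist1h4h (10.1 CPM), Hist1h2ap (6.02 CPM), and Hist2h2aa1 (4.93 CPM) are the highest in non-dividing cells.

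Dividing cells were also divided by whether S phase or G2/M phase genes led. S phase genes led when the UMIs over 8 of them exceeded those over 12 G2/M phase genes, without scaling for list size. Cells led by G2/M phase genes may therefore include cells in S phase. The cell types within both groups are not given here. Only the replicate 2 libraries had at least 10 cells led by S phase genes, 31 in each, so there is no test. The replication-dependent sum was 2224 CPM in WT and 3004 CPM in KO cells led by S phase genes, and 6102 and 4976 CPM in cells led by G2/M phase genes. Hist1h1b was at 689 and 1136 CPM in the first and at 1772 and 1907 CPM in the second. H2afz was at 1003 and 1338 CPM in the first and at 1783 and 2076 CPM in the second. UMIs per cell were alike, 22667 and 23080.4 against 24933 and 19749.8.

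Genes that act on histones and their mRNAs were read from the same test. Of the 3 other histone genes all were called higher in dividing cells: Cenpa, the H3 variant of centromeres, by 3.48 ± 0.27, H1fx by 2.16 ± 0.24, and H1f0, an H1 known from non-dividing cells, by 0.67 ± 0.22. Of 15 histone mRNA processing genes tested, 6 were called, all higher. They were Slbp by 1.91 ± 0.17, the exonuclease gene Eri1 by 1.21, Casp8ap2 by 1.17, the U7 snRNP gene Lsm11 by 1.15, Srrt by 0.93, and Cstf2 by 0.80. The S phase coactivator of histone genes, Npat, had a log2 fold change of 0.24 ± 0.22 and was not called. Of 23 histone chaperone genes, 9 were called, all higher, led by Asf1b (4.67 ± 0.35), Chaf1a (3.63 ± 0.26), and Chaf1b (3.32 ± 0.30), which deliver H3 and H4 to new DNA, and followed by Mcm2 (2.43) and Nasp (1.96). The H3.3 chaperone genes Hira, Daxx, and Atrx had log2 fold changes of 0.31, 0.01, and 0.05 and were not called. These 41 genes were called in 18 cases, against 21.2% of all genes, and low genes among them could likewise pass the filter through dividing cells alone.

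In β cells, no histone gene was called between KO and WT. Of 45 members tested, 0 were called with edgeR's quasi-likelihood test, and of 13238 genes 1 was (0.00755%), Ywhaz itself. Following the study, β cells of KO libraries entered this test only if they had no Ywhaz UMI, so that call is by construction. They were 671 of 1176, 730 of 1084, and 599 of 1074 β cells in the KO libraries, whereas all WT β cells entered. The part of this selection in the differences below was not tested. At an unadjusted p under 0.05 there were 9 members (8 replication-dependent and 1 variant) and 657 genes. DESeq2 called 2 members, Hist1h2ap and Hist1h2ae. Without a filter on low counts the same 2 genes were called, and with every replicate left out in turn 0 were. The share of all genes called by DESeq2 or without the filter is not given here, so these counts have no background beside them.

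Most replication-dependent genes nevertheless had lower values in KO. Of 36 tested, 27 had a log2 fold change below 0, with a median of -0.35, against a median of 0.0008 over all genes. The lowest was Hist1h2ap, at 5.23, 4.99, and 7.75 CPM after TMM normalization in the WT libraries and 1.59, 1.38, and 3.25 CPM in the KO libraries, a log2 fold change of -1.51 ± 0.31 (adjusted p = 0.904). Hist1h2ae was at 4.69, 4.32, and 6.56 CPM in WT and 2.45, 2.23, and 2.66 CPM in KO, with -1.08 ± 0.20. Hist2h2aa1 was at 5.20, 5.48, and 4.11 CPM in WT and 3.17, 2.88, and 3.55 CPM in KO, with -0.61 ± 0.16. In each of these the KO libraries lay below all WT libraries.

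That was so for 7 of the 36 replication-dependent genes, and for 2 the KO libraries lay above, against 5.95% and 5.12% of all genes. The summed level was 719, 543, and 687 CPM in WT and 619, 454, and 596 CPM in KO β cells without a Ywhaz UMI. The groups overlapped, and the log2 ratio of -0.22 was within the SD of 0.23 between libraries. Within pairs of the same replicate number, which were taken to pair the β cell libraries, the log2 ratios were -0.22, -0.26, and -0.21 (mean -0.23 ± 0.026, SD, n = 3), so the difference was larger than the spread between pairs. That was not particular to β cells: between same-numbered δ cell libraries the mean was -0.20 ± 0.077 (SD, n = 3). No test was run on the sum over the members. Without pairing, the β cell ratio ranged from -0.34 without WT library 2 to -0.10 without KO library 2. The abundant genes had log2 fold changes of -0.36 ± 0.26 (Hist1h1c), -0.13 ± 0.11 (Hist1h2bc), and -0.05 ± 0.21 (Hist1h1e), with overlapping groups.

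With the replicate number as a block, a pairing chosen from these same data, 4 members were called, all lower in KO, and 23 of 13238 genes (0.174%). They were Hist1h2ap (-1.54, adjusted p = 0.00468), Hist1h2ae (-1.08, adjusted p = 0.0243), Hist2h4, an H4 gene (-0.81, adjusted p = 0.0123), and Hist1h1d (-0.62, adjusted p = 0.0352). Hist2h4 was at 13.8, 6.42, and 10.8 CPM in WT and 7.49, 3.93, and 6.21 CPM in KO, and Hist1h1d was at 18.2, 12.4, and 20.7 CPM in WT and 12.9, 6.42, and 14.2 CPM in KO. Both groups overlapped, and both genes were lowest in the replicate 2 libraries of each genotype. Of these 4, Hist1h2ap and Hist1h2ae were also among the genes that rose most in dividing cells. Dividing cells were left out of these sums, and the share of cells with fewer cycle genes was not tested.

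Variant genes had small differences in the other direction. Of 8 tested, 7 had a log2 fold change above 0, with a median of 0.16, and none was called. H2afv was at 36.1, 33.3, and 37.5 CPM in WT and 41.0, 50.9, and 40.6 CPM in KO, with 0.31 ± 0.11 on the log2 scale. H2afz was at 294, 273, and 285 CPM in WT and 303, 332, and 308 CPM in KO, with 0.15 ± 0.08. In both the KO libraries lay above the WT libraries. The log2 fold change of H3f3a was 0.17 ± 0.11 and that of H3f3b -0.14 ± 0.09, and the variant sum had a log2 ratio of 0.07 against an SD of 0.11.

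**Figure D5:**
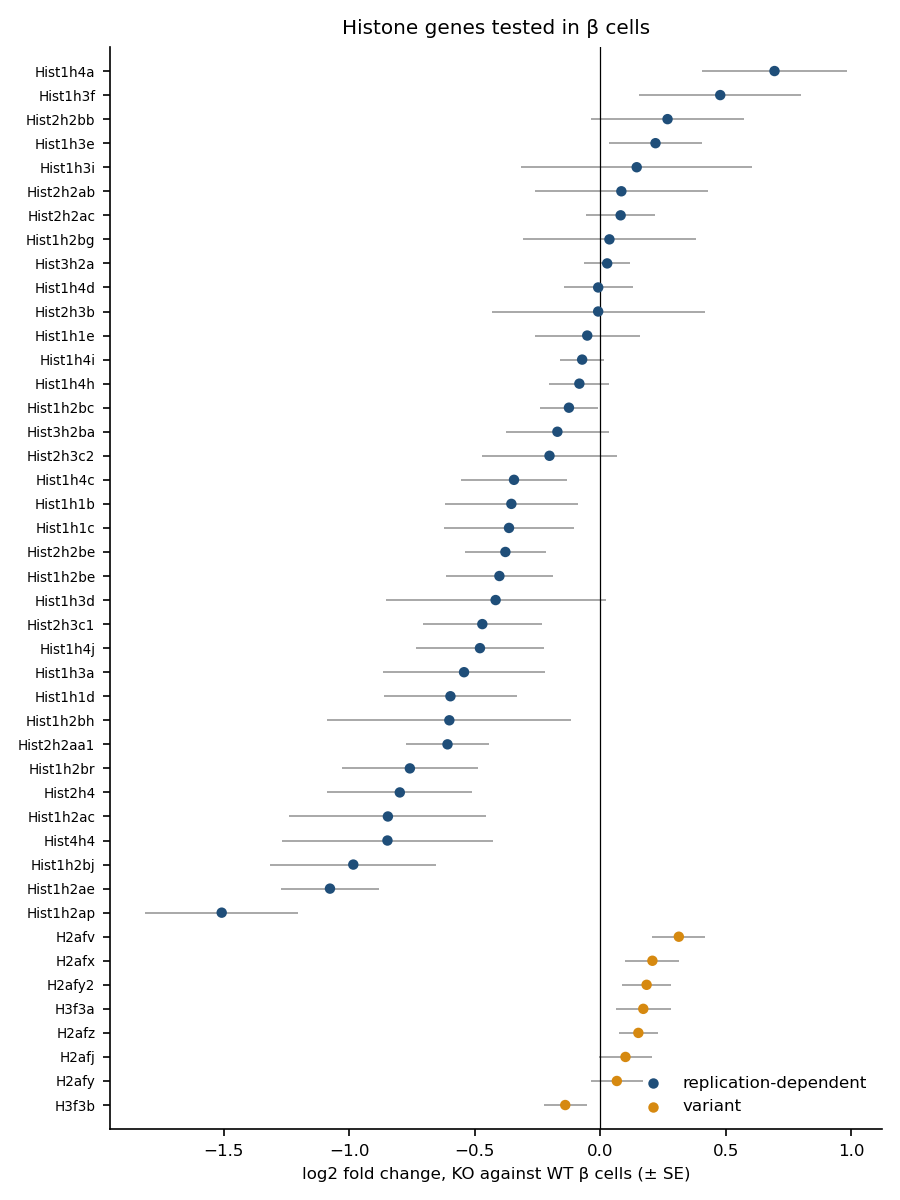
Log2 fold change of KO against WT β cells with its standard error for each replication-dependent (blue) and variant (orange) histone gene tested. Most replication-dependent genes lie below 0, down to -1.51 for Hist1h2ap, whereas 7 of 8 variant genes lie just above 0, and none passed the test without a block.

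In the other types, which the deletion does not target, 0 members were called between genotypes in α, δ, Ppy-high, and endothelial cells and macrophages, with edgeR and with DESeq2. At an unadjusted p under 0.05 there were 9 of 100 values with edgeR and 5 with DESeq2. The share of all genes at that p is not given here, so these counts are not read as a result about the members. With edgeR, those in δ cells were Hist3h2ba, Hist1h2ap, Hist1h4h, and Hist1h2ae, all lower in KO. Those in α and endothelial cells were also lower, and those in Ppy-high cells and macrophages were higher. Hist1h2ap and Hist1h2ae, the lowest in KO β cells, were looked up in these types after their β cell values were seen. In δ cells, Hist1h2ap was at 8.10, 12.9, and 7.47 CPM in WT and 3.38, 0, and 3.04 CPM in KO, with a log2 fold change of -1.79 ± 0.50 (unadjusted p = 0.00162, adjusted p = 0.9997, edgeR). Hist1h2ae was at 8.57, 12.9, and 14.9 CPM in WT and 6.28, 4.11, and 5.32 CPM in KO δ cells, with -1.04 ± 0.37 (unadjusted p = 0.00988, edgeR). Neither was called, and for both the KO libraries lay below all WT libraries. In macrophages, where it was not tested, Hist1h2ap was at 8.22, 11.7, and 16.0 CPM in WT and 1.02, 3.05, and 4.61 CPM in KO. In B cells, which had too few cells in a library for a genotype test, it was at 27.1, 21.4, and 49.6 CPM in WT and 0, 4.71, and 12.6 CPM in KO. The groups did not overlap in either type for Hist1h2ap. Nor did they in T cells, at 6.01, 8.78, and 29.6 CPM in WT and 0, 1.88, and 0 CPM in KO. There the lowest value above 0 of any member was 29.6 CPM in WT library 3 and 18.3 CPM in KO library 1. In ductal cells Hist1h2ap was at 2.44, 6.77, and 10.3 CPM in WT and 2.09, 0, and 1.41 CPM in KO, again without overlap. The lowest such value in ductal cells of KO library 2 was 8.81 CPM. A 0 in those KO libraries does not show a level below WT. The share of all genes without overlap in δ, B, T, or ductal cells or macrophages is not given here. T and ductal cells were too few in some libraries for a genotype test, and in both types the groups overlapped for Hist1h2ae. They overlapped for both genes in α and Ppy-high cells and for Hist1h2ap in endothelial cells. Across all genes 0.0% were called in each type, except 0.0117% in Ppy-high cells. The log2 ratio of the replication-dependent sum was 0.03 in α cells, -0.20 in δ cells, -0.03 in Ppy-high cells, -0.18 in endothelial cells, and -0.22 in macrophages, against -0.22 in β cells, and in no type were the groups apart. Between same-numbered libraries the log2 ratios were all below 0 in δ cells (-0.28, -0.17, and -0.13) and macrophages (-0.29, -0.01, and -0.33), as in β cells. In α, Ppy-high, and endothelial cells they had both signs. The genotype effect in each of these types was also tested against that in β cells, and no member was called, where 0.0361% of all genes were in α cells (0.0216% with a higher and 0.0144% with a lower effect than in β cells), 0.00705% in δ cells, 0.0584% in Ppy-high cells, 0.0142% in endothelial cells, and 0.0215% in macrophages. Of the 41 genes of the other histone, mRNA processing, and chaperone lists tested there, 0 were called between KO and WT β cells.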

How the data were processed

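Islet cells of 3 WT and 3 β14-3-3ζ–KO mice were profiled with the Chromium Next GEM 3′ kit, and the authors processed the reads with Cell Ranger 6.0.2 and the mm10 genome. They deposited UMI counts per gene and barcode, as whole numbers without normalization. The histone genes and all lists were chosen with earlier results of these data known.

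Barcodes with at least 500 genes and at most 10% mitochondrial UMIs were kept. Islet endocrine cells needed 5000 UMIs and 1500 genes and other cells 2000 UMIs. β cells had at least 20% of UMIs on insulin genes and 95% of hormone UMIs on them. α, δ, and Ppy-high cells were set likewise (60%, 50%, and 60% of hormone UMIs on their hormone), and other types by at least 4 markers of their list with at most 20% of UMIs on hormones. Barcodes with more than 2 markers of another type (3 of ductal or acinar cells in endocrine cells) were treated as doublets and put in no type, and no doublet caller was run. Barcodes that met no rule (13756) were kept out of the comparisons. Dividing cells had a UMI on at least 6 of 20 cycle genes, and non-dividing cells of the same type and library, 5 per dividing cell, were drawn with a fixed seed.

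UMIs were summed per library and type. Comparisons used edgeR 4.0.16 (glmQLFit and glmQLFTest, TMM, filterByExpr) in R 4.3.3, with limma 3.58.1, over all genes. A gene was called below an FDR of 0.05 if its log2 fold change was more than 0.1 away from 0. Genotype tests needed 20 cells of a type per library and type tests 10. DESeq2 1.42.0, no filter on low counts, leaving out each library, a replicate block, the study's gene filter, looser cell filters, and other limits for dividing cells were alternatives. Each test was checked on simulated data. The named genes were members called in a test and the 10 replication-dependent and 10 variant genes with the highest mean CPM in β cells and in dividing cells. Sums over members are given without a test, although exact tests had been planned. CPM were computed from the deposited counts. Where nothing says that mice of a group were handled separately, p-values measure only the spread between libraries.

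The labels number the mice of each genotype 1 to 3 without saying what a number marks. In β cells, deviations from the genotype means correlated at 0.35, 0.42, and 0.26 between same-numbered libraries and below 0 between all others. Deviations from a mean over 3 libraries sum to 0, so positive values for same numbers push the others below 0. The numbers were taken to pair the libraries there, a choice made from the same data that the blocked test then used. They were taken so in endothelial cells too (0.35, 0.24, and 0.101), although WT library 3 and KO library 2 correlated at 0.098 there. In the other types at least 1 same-numbered correlation was under 0.1.

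Stem-loops were searched in GENCODE vM21 transcripts and promoters in RefSeq on GRCm38.p6, in Python 3.11.15. Intervals are 95% and cover counting error only.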

Additional observations from a re-analysis of the deposited data

Results flagged for a closer look

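Barcodes that met no cell type rule were outside the comparisons, and 66 of them passed the limit for dividing cells. In 5 of 6 libraries these dividing barcodes held more replication-dependent histone RNA than the other barcodes without a type. The summed level was 2540.3 CPM in the 30 dividing barcodes of WT library 2, against 582 CPM in the others of that library, and 2568 CPM in the 19 of KO library 2, against 507 CPM. With 4 or 5 barcodes each, it was 1003 CPM in WT library 3 against 677 CPM, 1543 CPM in KO library 1 against 660.1 CPM, and 713 CPM in KO library 3 against 631 CPM. In WT library 1 it was 687 CPM in 4 dividing barcodes and 848 CPM in the others.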

How the results depend on the processing

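The limits were the few dividing cells outside the replicate 2 libraries, the low counts of most histone genes in β cells, and 3 mice per genotype. Members called between KO and WT β cells numbered 0, and 2 with DESeq2, 2 without a filter on low counts, and 4 with the replicate block. Each library left out in turn gave 0. The replicate block changed no call in the other types. Without a filter, members called numbered 47 of 70 in dividing cells and 44 of 73 in B cells against β cells, and the call rule then covered genes that the filter leaves out. The shares of all genes called without a filter are not given here. In mesenchymal cells the count without single libraries was 11 to 17, the lowest without WT library 2, against 19. The log2 ratio of the replication-dependent sum in dividing cells was 1.70 when 3 cycle genes sufficed, against 2.43, and that of the variant sum between genotypes in macrophages was 0.035 after TMM normalization, against -0.056; the cause was not tested. Of 614 further values for named genes, 598 kept their call, 12 gained and 4 lost it, and 0 reversed. Those lost were both of H3f3b given above and those of Hist1h4i in dividing cells when 3 cycle genes sufficed (0.92, adjusted p = 0.0564) and without both replicate 2 libraries (0.82, adjusted p = 0.158), which were left out together as a choice made after seeing the data. Of 2101 values for members called against β cells, 1949 kept their call and 0 reversed. The test of cells led by S against G2/M phase genes was not run because only 2 libraries had enough cells.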
